A study of Mus musculus with 32 samples.

Results

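The Notch pathway was read on whole-lung arrays of newborn mice through 10 genes: the 4 receptors Notch1, Notch2, Notch3 and Notch4, the 4 ligands Jag1, Jag2, Dll1 and Dll4, and the transcription factors Hes1 and Hey1, which Notch switches on. They were chosen by the gene name that the array files give each probe, and 12 probes carried one of these names, on an array with 35715 different names. All 10 genes were measured: each of the 12 probes was well above background on all 32 arrays and passed the filter on dim probes. The study asked whether blocking the microRNA miR-34a changes the arrested alveolar growth that high oxygen causes in newborn mice, a model of bronchopulmonary dysplasia, the chronic lung disease of preterm infants. Notch1, Notch2, Jag1 and Dll1 are among the reported targets of miR-34a.

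Wild-type C57Bl/6J pups, per the study's methods, breathed 21% O2 (normoxia) or 85% O2 (hyperoxia) from birth and were killed at postnatal day 5 (P5) or 14 (P14). Every pup was injected with a locked nucleic acid oligonucleotide, either antimiR-34a or an inert scrambled antimiR, so all 8 groups share an injection and none was left uninjected. There were 4 samples in each of the 8 groups: normoxia with scrambled antimiR, normoxia with antimiR-34a, hyperoxia with scrambled antimiR and hyperoxia with antimiR-34a, at either age. Each sample is taken here as 1 mouse. The labels number the samples without stating that, so the p-values measure only the spread between these samples. Mature miR-34a itself was not measured by these arrays.

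Notch receptors are activated by ligands on a neighbouring cell. The receptor is then cut inside the membrane by γ-secretase, and the released intracellular part binds the DNA-binding protein RBPJ and turns on genes of the Hes and Hey families. In lung vessels Dll4, Jag1, Notch1 and Notch4 act in endothelial cells, where the pathway restrains sprouting and sets arterial identity, and Notch3 acts in pericytes and smooth muscle. In the airway, Jagged ligands and Notch2 favour secretory over ciliated cells.

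The sequence that links miR-34a to its targets is its seed, bases 2 to 8, shown in capitals in the mature sequences of miR-34a-5p (GRCm38.p6 chr4:150068473-150068494, plus strand) and its relative miR-34b-5p (chr9:51103610-51103632, minus strand), both from RefSeq.
mmu-miR-34a-5p: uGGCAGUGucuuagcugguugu
mmu-miR-34b-5p: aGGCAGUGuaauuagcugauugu
Both share the seed GGCAGUG, which pairs with CACTGCC in a target's DNA letters. None of the 12 Notch probes holds CACTGCC, against 250 (0.449%) of the 55681 mouse probes. Whether the whole transcripts hold them was not analysed here.

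Signals below are log2 intensities after the 75th percentile of the same array was subtracted, so that 0 is the level of a fairly bright probe, and differences between groups are log2 fold changes with their standard error (SE). Levels of different probes are not compared with each other. A change was called where the adjusted p was under 0.05 (limma with Benjamini-Hochberg adjustment over all tested probes). Each of the 4 slides carried 8 mice that shared their age and their oxygen level, with the antimiRs in separate rows of arrays. Oxygen and slide, age and slide, and antimiR and array row therefore cannot be told apart, while each antimiR comparison was made within a slide. The lungs carried strong alveolar type II cell signal throughout: the mean of 6 type II marker genes, Sftpc among them, lay between 5.94 and 6.38 on every array. Samples of 1 group differed in marker scores, most of them for tissue outside the alveoli. The normoxia scrambled replicate 4 at P5 had a skeletal muscle score (mean of 8 genes) of 2.53, with -2.46 to -1.48 in the other 3, and an airway score (mean of 8 genes) of 2.96, with 1.55 to 2.11. In that group replicates 1 and 4 had heart muscle scores (mean of 8 genes) of 2.89 and 2.50, with 1.29 and 0.98 in the others. The hyperoxia antimiR-34a replicate 4 at P14 had an adipocyte score (mean of 6 genes) of -1.90, with -6.46 to -6.00 in the other 3, a heart muscle score of 2.24, with -0.16 to 0.79, and a type I cell score (mean of 6 genes) of 3.15, with 3.64 to 3.83. Replicate 2 of the hyperoxia antimiR-34a mice at P14 had a proliferation score (mean of 7 genes) of -0.71, with 0.22 to 0.50 in the other 3. The normoxia scrambled replicate 1 at P14 had an adipocyte score of 1.21, with -1.20 to -1.02 in the other 3. Of the normoxia antimiR-34a mice at P14, replicates 1 and 4 had adipocyte scores of 2.01 and 1.60, with -0.36 and -1.57 in the others. Replicate 1 of that group also had a thymocyte score (mean of 10 genes) of -1.58, with -2.83 to -2.57 in the other 3, and replicate 4 a heart muscle score of 3.96, with 0.78 to 2.52. In addition, 33616 to 34595 probes were above background in hyperoxia with antimiR-34a at P5. There were 36079 to 36786 in the scrambled antimiR mice of the same slide and 36253 to 37044 in normoxia with antimiR-34a at P5. At P14 39014 to 40788 probes were above background in normoxia and 34617 to 36478 in hyperoxia. The P14 difference and that within antimiR-34a at P5 run along the oxygen comparison. Their part in the falls there, those of dim probes among them, was not tested.

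With scrambled antimiR, hyperoxia moved Notch genes in both directions: 2 Delta ligands rose at P5, Jag2 fell at both ages, and Hey1 and Notch4 fell at P14. At P5, in mice given scrambled antimiR, the ligands Dll1 and Dll4 rose and Jag2 fell, 3 of 10 genes, against 43.9% of all 35984 tested probes (17.5% higher and 26.4% lower). At P14 Hey1, Jag2 and Notch4 fell and none rose, again 3 of 10, against 60.8% of 38458 probes (28.4% higher and 32.4% lower). With antimiR-34a, 5 of 10 fell at P5, where 46.6% of all probes were called (17.2% higher and 29.5% lower). At P14 with antimiR-34a 2 rose and 7 fell, where 65.6% were called (27.8% higher and 37.8% lower). The share called among the 10 genes lay below that of all probes in scrambled antimiR mice, near it at P5 with antimiR-34a and above it at P14 with antimiR-34a. These readings rest on the reported counts. The share of all probes called was not computed for the other analyses, so whether the readings hold there cannot be told. The methods' t-test called 2 in place of 5 at P5 and 5 in place of 9 at P14 with antimiR-34a, and the mean of probes, quantile normalization and the authors' values called 5 in place of 3 at P14 with scrambled antimiR. The median log2 fold change of the 10 genes at P14 was -0.16 with scrambled antimiR and -0.30 with antimiR-34a, beside -0.06 and -0.11 over all tested probes. Without the P5 sample with the muscle signal 3 genes were again called in hyperoxia at P5, and without the hyperoxia sample with the adipocyte signal, or either normoxia antimiR-34a sample that stood apart, 9 at P14 with antimiR-34a. Without the normoxia scrambled replicate 1 at P14, 3 were called there as before. In whole lung, fewer cells of a type and less RNA per cell cannot be told apart.

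**Figure D1:**
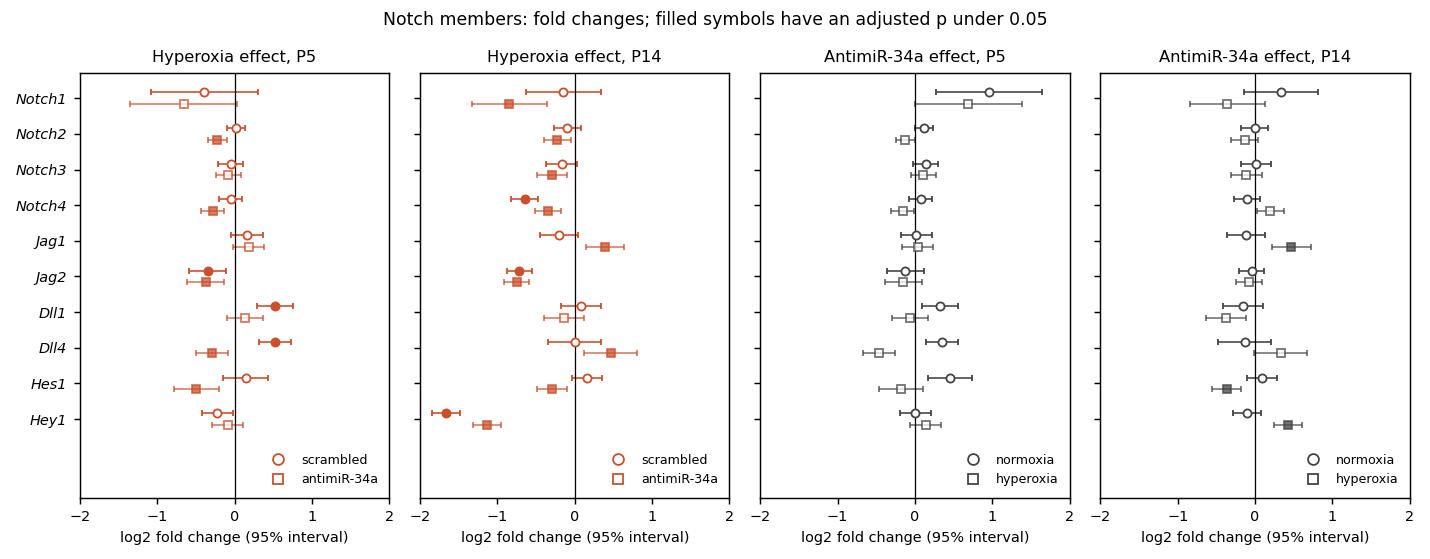
Log2 fold changes of the 10 Notch genes (brightest probe of each) with 95% intervals, for hyperoxia against normoxia (left 2 panels, circles scrambled antimiR, squares antimiR-34a) and for antimiR-34a against scrambled antimiR (right 2 panels, circles normoxia, squares hyperoxia), 4 mice per group; filled symbols have an adjusted p under 0.05. Hey1 stands farthest from 0 in hyperoxia at P14, at -1.66 and -1.13, and no symbol is filled for antimiR-34a at P5.

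Among the receptors, Notch4, which is largely endothelial (probe at mm9 chr17:34725120-34725179, plus strand), fell in hyperoxia at P14. In normoxia with scrambled antimiR the 4 mice lay at 3.12, 3.00, 3.1 and 2.97, and in hyperoxia at 2.50, 2.41, 2.39 and 2.28. Every hyperoxia mouse was below every normoxia mouse, a 1.57-fold decrease (log2 fold change -0.65, SE 0.08, adjusted p = 1.17e-05, limma). At P5 the same comparison gave -0.05 (95% interval -0.20 to 0.10), and the change of the hyperoxia effect from P5 to P14 passed the test (difference -0.60, SE 0.10, adjusted p = 5.51e-05, limma). That difference between ages passed for 5 of the 10 genes, Notch4, Jag2, Dll1, Dll4 and Hey1, all towards lower values at P14, against 40.8% of the 39163 probes tested (23% higher and 17.9% lower). With antimiR-34a the hyperoxia mice at P14 lay at 2.48, 2.75, 2.71 and 2.43 and the normoxia mice at 2.92, 2.90, 2.97 and 2.96. The fall there was smaller in size (-0.34, SE 0.08, adjusted p = 0.00174), but the difference between the antimiRs did not pass (0.30, 95% interval 0.06 to 0.55, adjusted p = 0.251). With antimiR-34a Notch4 was also lower in hyperoxia at P5, with all 4 mice (2.85, 2.96, 2.77 and 2.92) below the 4 normoxia mice (3.19, 3.18, 3.04 and 3.22; log2 fold change -0.28, SE 0.07, adjusted p = 0.00422).

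Notch3, the receptor of pericytes and vascular smooth muscle (chr17:32257848-32257907, minus strand), was called lower in hyperoxia at P14 with antimiR-34a. At P14 it lay at 3.47, 3.35, 3.45 and 3.32 in normoxia and 3.16, 3.06, 3.34 and 3.34 in hyperoxia with scrambled antimiR, where the groups overlapped (-0.17, adjusted p = 0.128). With antimiR-34a all 4 hyperoxia mice (2.99, 2.92, 3.29 and 3.27) were below the normoxia mice (3.43, 3.42, 3.42 and 3.36), a fall that passed the test (-0.29, SE 0.09, adjusted p = 0.0128); the difference between the antimiRs did not (adjusted p = 0.669). The fall did not pass in the methods' t-test (adjusted p = 0.0822), and quantile normalization and the authors' values made it larger (-0.45 and -0.44). Of the 10 genes on pericyte and smooth muscle markers, 3 rose and 3 fell in that comparison. Notch3 was lower at P14 than at P5 in normoxia with scrambled antimiR (-0.21, SE 0.08, adjusted p = 0.0399), a call that leaving out any 1 of 5 of the 8 mice ended, as did scaling to probes above background on all arrays (adjusted p = 0.0550), no filter on dim probes (0.0595) and normexp background correction (0.161).

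Notch2, the receptor of airway secretory cells, was called lower in hyperoxia with antimiR-34a at both ages on its brighter probe (chr3:97953914-97953973, plus strand), which starts 10129 bases into the transcript as the array design gives it. The P5 mice lay at 2.24, 2.20, 2.11 and 2.02 in normoxia and 2.19, 2.20, 2.16 and 2.10 in hyperoxia with scrambled antimiR, which overlapped. With antimiR-34a the hyperoxia mice (1.97, 2.04, 2.09 and 2.04) were below the normoxia mice (2.30, 2.21, 2.27 and 2.27) at P5, lower by 0.22 on the log2 scale (SE 0.06, adjusted p = 0.00491). The second, dimmer probe (chr3:97951233-97951292, plus strand) starts at base 7448 and read differently: r between the 2 probes was -0.03 across the 32 arrays, and for hyperoxia with antimiR-34a at P5 it gave 0.29 (adjusted p = 0.0681). At P14 with scrambled antimiR the brighter probe gave -0.10 (adjusted p = 0.305) and the dimmer one -0.50 (adjusted p = 0.00533), so whether Notch2 is counted as lower there rests on the probe. With antimiR-34a both fell at P14, by 0.23 and 0.89 on the log2 scale (adjusted p = 0.0247 and 5.54e-05). The call of the brighter probe was lost without hyperoxia replicate 1 or 3 or normoxia replicate 2 (adjusted p up to 0.0846), with these groups fitted alone (0.0730) and in the methods' t-test (0.0858). Quantile normalization and the authors' values made that fall larger, at -0.35 each.

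Notch1, the best studied receptor of the family, also had 2 probes that gave different values, and the brighter one carries a run of GAA triplets. Its 60 bases (mm9 chr2:26319440-26319499, minus strand) are shown with those of 2 probes of other genes that hold such a run and were among its 3 likest named genes across the 32 arrays, for Cmya5, a muscle protein (chr13:93853208-93853267, minus strand), and Ermn, a protein of myelinating cells (chr2:57900470-57900529, minus strand), with the GAA run of each in capitals.
Notch1: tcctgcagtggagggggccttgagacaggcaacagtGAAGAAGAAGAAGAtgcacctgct
Cmya5: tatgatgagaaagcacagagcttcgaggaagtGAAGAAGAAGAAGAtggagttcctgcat
Ermn: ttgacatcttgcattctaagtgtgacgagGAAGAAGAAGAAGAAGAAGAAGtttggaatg
The brighter Notch1 probe had r = 0.95 with the Cmya5 probe and r = 0.92 with the Ermn probe. The other of its 3 likest genes, Gabra2, ranked between them (r = 0.94), and its probe sequence is not shown here. The GAA run was noticed from that list of likest genes. In all, 55 mouse probes hold GAAGAAGAAGAAGA. The median r of the brighter Notch1 probe with the other 54 was 0.53, beside 0.13 with all 38981 probes that had a value on every array, and 11 of the 54 were among its 20 likest probes. For the dimmer Notch1 probe, which lacks the run, the median was 0.23 and none of the 54 (0) was among its 20 likest. These r values are across 32 arrays that share slides and scaling and are given as a description. Why the probes moved together was not tested.

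**Figure D2:**
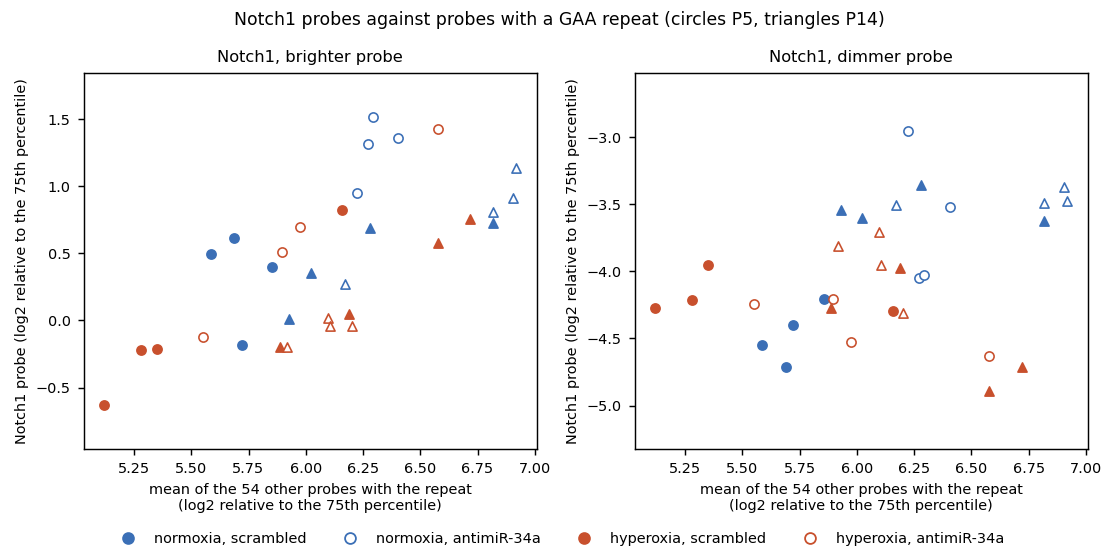
Signal of the brighter (left) and dimmer (right) Notch1 probe in each of the 32 mice against the mean of the 54 other probes that hold GAAGAAGAAGAAGA, both as log2 relative to the array's 75th percentile; circles are P5, triangles P14, filled symbols scrambled antimiR, open symbols antimiR-34a. The brighter probe follows the mean of the repeat probes (r = 0.69) more closely than the dimmer one does (r = 0.31). Of the Notch probes without the run, the dimmer Notch2 probe (r = 0.41) and the Hes1 probe (r = 0.32) had the highest r with that mean.

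In single mice the brighter Notch1 probe spread widely. At P5 it lay at 0.40, -0.18, 0.49 and 0.61 in normoxia with scrambled antimiR and at 1.36, 1.32, 1.52 and 0.95 with antimiR-34a, where the groups did not overlap (0.96, SE 0.32, unadjusted p = 0.01, adjusted p = 0.180, limma). In that comparison all 54 repeat probes were higher with antimiR-34a as well, with a median of 0.59, beside 0.04 over all tested probes. In hyperoxia at P5 the Notch1 difference was 0.69 and the median of the repeat probes 0.51. In hyperoxia at P14 they were -0.36 and -0.28. The brighter probe and the repeat probes had the same sign in each of the 4 antimiR comparisons, with 0.34 and 0.41 in normoxia at P14. In hyperoxia against normoxia they had the same sign in 3 of 4 comparisons. Both were lower at P5, with -0.39 for Notch1 and -0.26 for the repeat probes with scrambled antimiR, and -0.66 and -0.25 with antimiR-34a. Both were also lower at P14 with antimiR-34a, but at P14 with scrambled antimiR Notch1 gave -0.15 while 37 of the 54 repeat probes were higher, with a median of 0.15.

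The dimmer Notch1 probe reads a stretch nearer the end of the transcript (chr2:26314630-26314689, minus strand). At P14 in normoxia with scrambled antimiR it lay at -3.60, -3.36, -3.54 and -3.63 and in hyperoxia at -4.27, -3.97, -4.89 and -4.71, every mouse lower (-0.93, SE 0.17, adjusted p = 4.09e-04), where the brighter probe gave -0.15 (adjusted p = 0.581). At P5 the same comparison gave 0.28 on the dimmer probe, with overlap (adjusted p = 0.281), and the hyperoxia effect was lower at P14 than at P5 (-1.21, SE 0.28, adjusted p = 0.00113). With antimiR-34a it fell in hyperoxia at P5 (-0.76, SE 0.20, adjusted p = 0.00725). With antimiR-34a both probes were lower in hyperoxia at P14, by 0.48 on the dimmer and 0.84 on the brighter probe on the log2 scale (adjusted p = 0.0250 and 0.00456). The median of the repeat probes was -0.57 in that comparison, and 28 of the 54 were called lower. For antimiR-34a in normoxia at P5 the dimmer probe was higher too (0.83, SE 0.20, adjusted p = 0.0997), with the 4 mice at -3.52, -4.05, -4.03 and -2.95 against -4.21, -4.40, -4.55 and -4.72. In hyperoxia it went the other way from the brighter probe, at -0.22 at P5 and 0.52 at P14, neither passing the test.

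**Figure D3:**
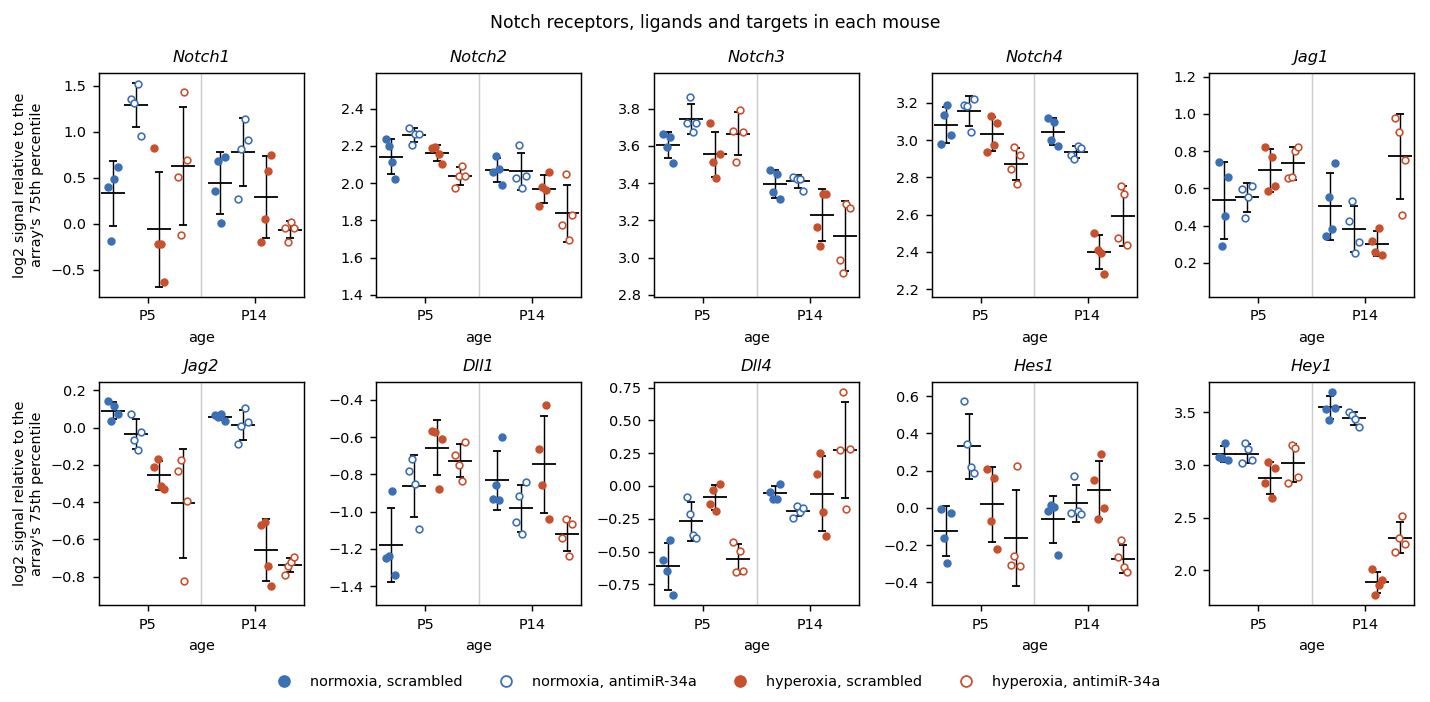
Log2 signal of the 10 Notch genes relative to the array's 75th percentile in each of the 32 mice (points), with the mean and SD of the 4 mice of a group (bars); blue is normoxia, red hyperoxia, filled symbols scrambled antimiR and open symbols antimiR-34a, and each panel has its own axis. For Hey1 at P14 the hyperoxia mice sit between 1.76 and 2.52 and the normoxia mice between 3.36 and 3.69.

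Of the ligands, Jag2 (chr12:114146887-114146946, minus strand), which acts in airway epithelium among other places, was lower in hyperoxia at both ages and with both antimiRs. At P14 the normoxia mice with scrambled antimiR lay at 0.06, 0.06, 0.07 and 0.04 and the hyperoxia mice at -0.52, -0.51, -0.74 and -0.85, a 1.64-fold decrease (-0.71, SE 0.08, adjusted p = 3.57e-06, limma). With antimiR-34a the hyperoxia mice were at -0.79, -0.74, -0.72 and -0.70, close to one another, and the change was -0.75 (SE 0.08, adjusted p = 2.08e-06). At P5 the falls were -0.35 (SE 0.11, adjusted p = 0.0201) with scrambled antimiR and -0.37 (SE 0.11, adjusted p = 0.0129) with antimiR-34a. The first was lost without hyperoxia replicate 3 or 4 (adjusted p up to 0.0516), the second with these groups fitted alone (0.0563) and in the methods' t-test (0.151). The hyperoxia mice with antimiR-34a lay at -0.23, -0.18, -0.83 and -0.39, and without replicate 3, the lowest, the change was -0.23. In each of these 4 comparisons no hyperoxia mouse overlapped a normoxia mouse. The fall was larger at P14 than at P5 with scrambled antimiR (difference -0.37, SE 0.13, adjusted p = 0.0299), a call that leaving out any 1 of 4 of the 16 mice ended.

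Dll4, the endothelial ligand of sprouting vessels (chr2:119160779-119160838, plus strand), rose in hyperoxia at P5 with scrambled antimiR. The normoxia mice lay at -0.56, -0.65, -0.41 and -0.83 and the hyperoxia mice at -0.14, -0.03, -0.19 and 0.01, with no overlap, a 1.44-fold increase (0.53, SE 0.10, adjusted p = 6.26e-04, limma). With antimiR-34a the order at P5 was turned: the normoxia mice were at -0.09, -0.21, -0.38 and -0.40 and the hyperoxia mice at -0.43, -0.65, -0.50 and -0.65, again with no overlap (-0.29, SE 0.10, adjusted p = 0.0245). The difference between these 2 effects was -0.81 (95% interval -1.11 to -0.52, unadjusted p = 3.30e-05), and its adjusted p of 0.0502 missed the threshold narrowly, in a test that 0.0556% of all probes passed. It passed in 3 of 8 other analyses (array weights, normexp background correction and a stricter filter on dim probes), with adjusted p from 0.0303 to 0.127 over the 8. The fall with antimiR-34a was lost in 3 other analyses (adjusted p = 0.0599 to 0.0613) and without any 1 of 4 of the 8 mice. At P14 Dll4 gave no detectable change in hyperoxia with scrambled antimiR (-0.0016, 95% interval -0.34 to 0.34) and was higher in hyperoxia with antimiR-34a, with overlap between the groups (0.28, 0.72, -0.18 and 0.28 against -0.24, -0.15, -0.20 and -0.17; 0.47, SE 0.16, adjusted p = 0.0194), a call lost without hyperoxia replicate 2 (adjusted p = 0.0656) and in the methods' t-test (0.121). The hyperoxia effect with scrambled antimiR was lower at P14 than at P5 (-0.53, SE 0.19, adjusted p = 0.0279), a call lost without P14 hyperoxia replicate 3 or 4, P5 hyperoxia replicate 4 or P5 normoxia replicate 4 (adjusted p up to 0.0765).

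Dll1, a Delta ligand of many developing tissues (chr17:15504623-15504682, minus strand), rose in hyperoxia at P5 with scrambled antimiR, from -1.25, -1.24, -0.89 and -1.34 to -0.57, -0.57, -0.88 and -0.61. The groups were apart by a narrow margin, as normoxia replicate 3 was the highest of its group and hyperoxia replicate 3 the lowest (0.52, SE 0.11, adjusted p = 0.00152). With antimiR-34a the change at P5 was 0.13 (95% interval -0.10 to 0.37). At P14 it was 0.08 with scrambled antimiR and -0.14 with antimiR-34a, neither passing. The hyperoxia effect with scrambled antimiR was lower at P14 than at P5 (-0.44, SE 0.16, adjusted p = 0.0343), a call that ended without any 1 of 9 of the 16 mice, with array weights (adjusted p = 0.105), with no filter (0.0503) and with normexp (0.0530).

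Jag1, the ligand that arterial and smooth muscle cells use (chr2:136907433-136907492, minus strand), did not pass the test in hyperoxia at P5 (0.16, 95% interval -0.04 to 0.36, with scrambled antimiR) or at P14 (-0.20, -0.45 to 0.05). With antimiR-34a at P14 it rose, from 0.42, 0.53, 0.25 and 0.31 in normoxia to 0.98, 0.90, 0.46 and 0.75 in hyperoxia, with hyperoxia replicate 3 inside the normoxia range (0.39, SE 0.11, adjusted p = 0.00831; 0.0574 in the methods' t-test). The difference between the antimiRs was 0.59 (unadjusted p = 0.00267, adjusted p = 0.151), in a test that 0.0884% of all probes passed.

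Of the targets, Hey1, which Notch switches on in arterial endothelium (chr3:8663432-8663491, minus strand), gave the largest change in hyperoxia of the 10 genes. At P14 with scrambled antimiR the normoxia mice lay at 3.53, 3.42, 3.69 and 3.54 and the hyperoxia mice at 2.01, 1.76, 1.86 and 1.91. The lowest normoxia mouse was above the highest hyperoxia mouse by more than 1 log2 unit, and the decrease was 3.17-fold (-1.66, SE 0.08, adjusted p = 4.24e-09, limma). At P5 the mice lay at 3.07, 3.07, 3.21 and 3.04 in normoxia and 2.83, 3.02, 2.68 and 2.97 in hyperoxia, without overlap, but the difference did not pass (-0.22, SE 0.09, adjusted p = 0.0715). With antimiR-34a Hey1 fell at P14 too, from 3.51, 3.47, 3.44 and 3.36 to 2.17, 2.31, 2.52 and 2.24 (-1.13, SE 0.08, adjusted p = 1.38e-07), and the difference between the antimiRs was 0.53 (95% interval 0.27 to 0.79, adjusted p = 0.0985). The hyperoxia effect with scrambled antimiR was larger at P14 than at P5 (difference -1.44, SE 0.13, adjusted p = 7.70e-09). In normoxia Hey1 rose from P5 to P14 (0.45, SE 0.09, adjusted p = 1.66e-04), while every hyperoxia mouse was lower at P14 (1.76 to 2.52) than at P5 (2.68 to 3.19).

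Hes1, the target that most cells with active Notch share (chr16:30067820-30067879, plus strand), was not called with scrambled antimiR. It gave 0.14 in hyperoxia at P5 and 0.16 at P14, neither passing. With antimiR-34a it fell at both ages. At P5 the normoxia mice were at 0.57, 0.34, 0.22 and 0.19 and the hyperoxia mice at -0.30, -0.26, 0.22 and -0.31, with replicate 3 of the latter inside the normoxia range (-0.49, SE 0.13, adjusted p = 0.00779; 0.0625 in the methods' t-test). At P14 all hyperoxia mice (-0.26, -0.17, -0.32 and -0.34) were below the normoxia mice (-0.03, 0.17, -0.02 and -0.03; -0.30, SE 0.09, adjusted p = 0.00930). The difference between the antimiRs was -0.64 at P5 and -0.45 at P14, with adjusted p = 0.261 and 0.158.

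Of the 6 genes listed for arterial endothelium, 4 fell in hyperoxia and none rose at P14 with scrambled antimiR, where 32.4% of all probes were called lower: Sox17 (-1.56), Hey2 (-1.69), Gja4 (-1.25) and Efnb2 (-0.60). Gja5 gave 0.11 and Bmx -0.10 without passing. Their mean was 1.28 to 1.44 in the normoxia mice and 0.45 to 0.63 in the hyperoxia mice. At P5 4 of 6 fell, where 26.4% of all probes were called lower, Gja4 (-1.18), Sox17 (-0.93), Bmx (-0.31) and Efnb2 (-0.25), with means of 1.21 to 1.29 in normoxia and 0.55 to 0.91 in hyperoxia. General endothelial markers split, with 4 of 10 up and 4 down at P14. Kdr rose (0.35, adjusted p = 0.0125), Cdh5 gave 0.02 and Tek, the angiopoietin receptor, fell by 2.46 on the log2 scale (adjusted p = 2.58e-09). Each of the 16 endothelial and arterial markers was well above background in at least 1 mouse of every group. The Hey2 probe was dim, with a mean of -5.42 in hyperoxia at P14 with scrambled antimiR. For antimiR-34a in hyperoxia at P14 none of the 6 arterial markers was called, and 1 of the 10 endothelial markers was, the tight junction gene Cldn5, which was lower (-0.29, adjusted p = 0.0292). With antimiR-34a 4 of the 6 fell and Gja5 rose in hyperoxia at P14. What part vessel content had in the Hey1 and Notch4 changes was not tested. At P5 with antimiR-34a, where 5 Notch genes fell in hyperoxia, 4 of the 6 arterial markers fell and none rose, 3 of 10 endothelial markers rose and 3 fell, 1 of 10 pericyte and smooth muscle markers rose and 6 fell, and 7 of 7 tested proliferation genes fell. At P14 with antimiR-34a 4 of 10 endothelial markers rose and 4 fell, 6 of 6 adipocyte markers fell, and 1 of 10 thymocyte markers rose and 7 fell. In the same comparison 4 of 6 type I cell markers rose and 1 fell, and 4 of 6 type II cell markers fell. Of 8 airway markers 2 rose and 3 fell, and of 10 pericyte and smooth muscle markers 3 rose and 3 fell. Of 8 heart muscle markers 3 fell, as did 3 of 8 skeletal muscle markers and 3 of 7 tested proliferation genes. Their part in the Notch changes was not tested. Markers of other tissues moved as well in hyperoxia with scrambled antimiR. Adipocyte markers (6 of 6) and thymocyte markers (7 of 10) fell at P14, with median log2 fold changes of -6.65 and -1.32, and 7 of 7 tested proliferation genes fell at P5. Heart muscle markers fell at both ages, 6 of 8 at P5 and 4 of 8 at P14, and skeletal muscle markers 4 of 8 at P5 and 5 of 8 at P14. Of the 10 pericyte and smooth muscle markers 1 rose and 5 fell at P5, and 3 rose and 4 fell at P14. Of 6 type I cell markers 4 rose and 1 fell at either age. Of 6 type II cell markers 1 fell at P5, and 1 rose and 4 fell at P14. Of 8 airway markers 1 fell at P5, and 1 rose and 3 fell at P14.

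Hey1 also had Tek as the gene whose pattern over the 32 arrays was most like its own (r = 0.96 among 15054 named genes). For Jag2 it was Qser1 (r = 0.95), for Notch4 Phf6 (0.92) and for Notch3 Zfp395 (0.91). The likest genes of Notch2, Dll4, Jag1, Hes1 and Dll1 were Trim71 (0.83), Bcl10 (0.82), Mllt11 (0.77), Fam13c (0.70) and Flrt3 (0.68). These arrays share the group differences and the slides, and the r values are a description.

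AntimiR-34a against scrambled antimiR called few Notch genes. At P5 none of the 10 was called in normoxia (0.136% of all probes were) or in hyperoxia (0.0639%). An unadjusted p under 0.05 was reached by 4 in normoxia (17.4% of all probes) and 3 in hyperoxia (13% of all probes). At P14 none was called in normoxia, where no probe of the array was (percent called 0) and none of the 10 had an unadjusted p under 0.05 (10.5% of all probes). In hyperoxia at P14, 3 of 10 were called, 2 higher and 1 lower, against 2.66% of all probes (1.12% higher and 1.54% lower), and 5 had an unadjusted p under 0.05 (16.7% of all probes).

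Those 3 were Hey1, Jag1 and Hes1. Hey1 was higher with antimiR-34a, at 2.17, 2.31, 2.52 and 2.24 against 2.01, 1.76, 1.86 and 1.91, with no overlap (0.43, SE 0.08, adjusted p = 0.0195, limma), while still below every normoxia mouse of that age. Jag1 was higher, at 0.98, 0.90, 0.46 and 0.75 against 0.32, 0.26, 0.39 and 0.24, also with no overlap (0.47, SE 0.11, adjusted p = 0.0459). Hes1 was lower, at -0.26, -0.17, -0.32 and -0.34 against 0.15, -0.06, 0.29 and -0.0027, with no overlap (-0.37, SE 0.09, adjusted p = 0.0444). The calls of Jag1 and Hes1 lay close to the threshold. Under 6 of 12 other ways of processing Hey1 was the 1 member left, and it too was lost where the fit held these groups alone (adjusted p = 0.120) and in the methods' t-test (0.292). Without the hyperoxia antimiR-34a replicate 4, which had the high adipocyte score, Hey1 was the 1 call left, without the hyperoxia scrambled replicate 2 it was Hes1, and leaving out any other mouse of the 8 gave 1 or 2 calls.

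The 4 reported targets of miR-34a were looked at in all 4 antimiR comparisons. For Notch2 on its brighter probe the log2 difference with its 95% interval was 0.12 (-0.0041 to 0.23) in normoxia and -0.12 (-0.24 to -0.0041) in hyperoxia at P5. At P14 it was -0.01 (-0.18 to 0.17) and -0.13 (-0.31 to 0.04). Its dimmer probe gave -0.17 (-0.43 to 0.10) and -0.06 (-0.33 to 0.20) at P5, and 0.33 (0.04 to 0.61, adjusted p = 0.473) and -0.07 (-0.35 to 0.22) at P14. The probes gave different values in normoxia at P14, where the dimmer one was higher with antimiR-34a without passing. For Jag1 it was 0.02 (-0.19 to 0.22) and 0.04 (-0.16 to 0.24) at P5 and -0.12 (-0.37 to 0.12) in normoxia at P14, beside the rise in hyperoxia at P14 given above. For Dll1 it was 0.32 (0.09 to 0.55) and -0.07 (-0.30 to 0.16) at P5, and -0.15 (-0.41 to 0.11) and -0.37 (-0.63 to -0.12) at P14. The lowest of these adjusted p-values was 0.124, for a lower Dll1 in hyperoxia at P14. For Notch1 on its brighter probe it was 0.96 (0.27 to 1.65) and 0.69 (-0.00099 to 1.38) at P5, and 0.34 (-0.15 to 0.82) and -0.36 (-0.84 to 0.12) at P14. Of these 16 differences, with the brighter probe of Notch1 and Notch2, 1 passed the test, 8 were above 0 and 8 below.

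Dll4, which is not among those 4, was lower with antimiR-34a in hyperoxia at P5, with the 4 mice below the 4 scrambled antimiR mice (-0.47, SE 0.10, unadjusted p = 2.42e-04, adjusted p = 0.115). In normoxia at P5 it was higher, again without overlap (0.34, SE 0.10, adjusted p = 0.134). At P14 the sign was the opposite at each oxygen level, 0.33 (adjusted p = 0.314) in hyperoxia and -0.13 (adjusted p = 0.818) in normoxia. Hes1 was higher in normoxia at P5, at 0.57, 0.34, 0.22 and 0.19 against -0.01, -0.16, -0.29 and -0.03, without overlap and without passing (0.45, adjusted p = 0.144).

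From P5 to P14 in normoxia with scrambled antimiR, 3 of the 10 genes rose and 1 fell, against 51.4% of the 39163 probes tested (27.8% higher and 23.5% lower). Dll4 rose by 0.56 (SE 0.13, adjusted p = 0.00119), from -0.56, -0.65, -0.41 and -0.83 to -0.05, -0.10, -0.10 and 0.02 without overlap. Dll1 rose by 0.35 (SE 0.12, adjusted p = 0.0141) with overlap, a call lost without replicate 4 of either age (adjusted p up to 0.0675) and in the methods' t-test (0.0757), and Hey1 and Notch3 are given above. Over the same span the 10 Notch genes had a median of 0.02. Markers of several cell types moved between these ages: 8 of 10 endothelial markers rose (median 0.42), as did 5 of 6 type I cell (0.43), 8 of 10 thymocyte (1.24) and 6 of 6 adipocyte markers (2.82), and 7 of 7 tested proliferation genes fell (-2.02). Of the arterial markers 2 rose and 1 fell, and of the pericyte and smooth muscle markers 3 rose and 2 fell. Their part in the Notch changes with age was not tested.

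Beyond the 10 members, 45 other genes of the pathway were listed, and all had a tested probe. In hyperoxia with scrambled antimiR 10 rose and 11 fell at P5, and 16 rose and 15 fell at P14, where 43.9% and 60.8% of all probes were called. The median log2 fold change of the list was 0.0013 at P5 and 0.03 at P14, beside -0.07 and -0.06 over all probes. With antimiR-34a the counts were 9 up and 13 down at P5 and 16 up and 13 down at P14, beside 46.6% and 65.6% of all probes. The shares called lay near those of all probes. The classes of the list at P14 with scrambled antimiR stand beside 28.4% of all probes higher and 32.4% lower. Of the 6 further Notch targets 2 rose and 4 fell, and of the 4 genes of ligand endocytosis, the step by which a ligand pulls on its receptor, 3 rose and none fell. Of 8 proteases 3 rose and 2 fell, of 8 genes of the nuclear complex and its corepressors 1 rose and 4 fell, and of 9 inhibitors and turnover genes 4 rose and 2 fell. Of 5 sugar modifiers 2 rose and 1 fell, and of 5 ligands and ligand-like genes 1 rose and 2 fell. Hey2, a relative of Hey1 that is also on the arterial list, lay at -3.63, -3.83, -3.79 and -3.69 in normoxia and -5.80, -5.44, -5.49 and -4.96 in hyperoxia, every mouse lower (-1.69, SE 0.19, adjusted p = 6.49e-06). Hes5 fell as well, from a mean of -3.77 to -4.88 (-1.12, SE 0.16, adjusted p = 5.55e-05). The Hey2 and Hes5 probes were dim, though above background on all 4 arrays of each group. What their low signal did to these falls was not tested. Nrarp, a target that feeds back to restrain Notch, went the other way, from -1.26, -1.01, -1.07 and -0.51 to 0.18, 0.02, 0.08 and -0.26 (0.97, SE 0.17, adjusted p = 1.92e-04).

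Among ligand-like genes Dlk1, a growth-related gene of fetal tissue that lacks the usual receptor-binding part, fell in hyperoxia by 1.63 at P5 and 2.32 at P14 on the log2 scale (adjusted p = 2.57e-05 and 7.74e-08). Dner, read on a dim probe, fell by 1.65 at P14 (adjusted p = 0.00174), from a mean of -3.26 to -4.91. That probe was above background on 2 of the 4 hyperoxia antimiR-34a arrays at P14. Neurl1a, a ubiquitin ligase of ligand endocytosis, rose by 1.05 at P14 (adjusted p = 6.49e-06). At P5 the γ-secretase subunit Ncstn rose (0.40, adjusted p = 0.0170) and the subunit Aph1b fell (-0.39, adjusted p = 4.14e-04). Kat2b, an acetyltransferase of the Notch transcription complex, rose (0.43, adjusted p = 0.00320), and Hes7 fell (-0.66, adjusted p = 3.13e-05). Rbpj, the DNA-binding partner of all 4 receptors, gave -0.01 at P5 and -0.09 at P14, neither passing; it was named for its role after its values were seen.

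Nrarp was also the 1 gene of the 45 that the antimiR comparisons called, and it was named here after its values were seen. At P5 in normoxia it was higher with antimiR-34a, at 0.14, -0.15, 0.02 and -0.34 against -0.87, -0.95, -0.77 and -0.66, a 1.66-fold increase (0.73, SE 0.11, adjusted p = 0.0317, limma). In hyperoxia at P5 it lay at -0.34, -0.49, -0.65 and -0.62 with antimiR-34a and -0.03, -0.21, -0.16 and 0.16 with scrambled antimiR, every antimiR-34a mouse lower (-0.46, SE 0.11, adjusted p = 0.143). The hyperoxia effect at P5 therefore differed between the antimiRs (difference -1.20, SE 0.16, adjusted p = 0.0124). At P14 Nrarp was lower with antimiR-34a in hyperoxia, at -0.65, -0.58, -0.83 and -1.05 against 0.18, 0.02, 0.08 and -0.26 (-0.78, SE 0.17, adjusted p = 0.0248), and in normoxia it gave -0.17 (adjusted p = 0.767). With the replicate number as a block all 3 calls were lost, with adjusted p = 0.0683 in normoxia at P5, 0.0598 in hyperoxia at P14 and 0.0684 for the difference at P5. The methods' t-test lost the call in normoxia at P5 (0.139) and that in hyperoxia at P14 (0.265), no filter the first (0.0571) and a fit of the compared groups alone the second (0.0653). Without the block the difference at P5 passed when any 1 of the 16 mice was left out, while the rise in normoxia at P5 was lost without 6 of 8 and the fall at P14 without 5 of 8, with sizes that stayed between 0.66 and 0.82 and between -0.87 and -0.69. Dll4 had the same order of the 4 groups at P5, with its normoxia scrambled and hyperoxia antimiR-34a means (-0.61 and -0.56) below the other 2 (-0.27 and -0.09); the hyperoxia and antimiR comparisons at P5 share these mice.

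**Figure D4:**
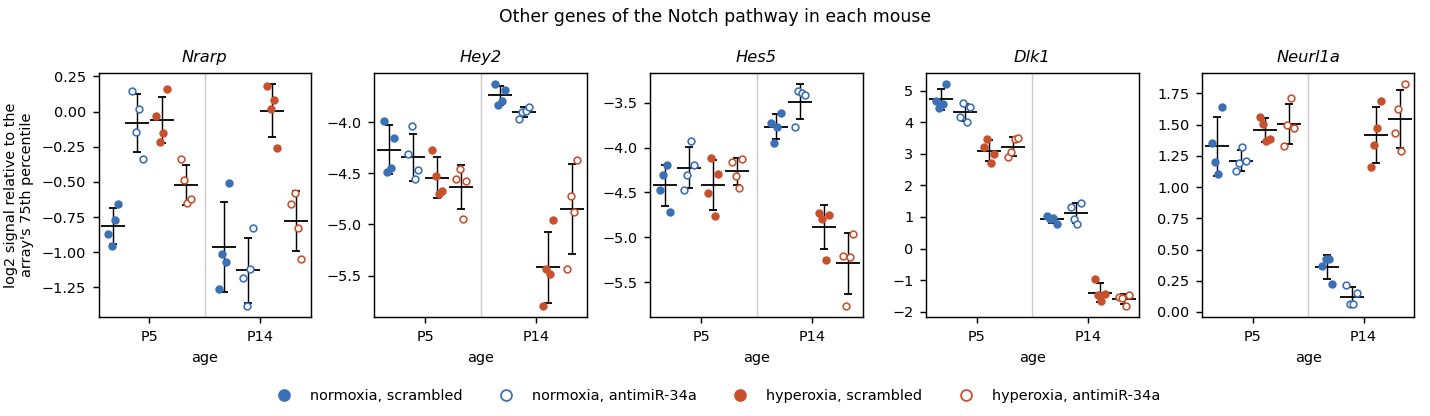
Log2 signal of 5 other Notch pathway genes relative to the array's 75th percentile in each of the 32 mice (points), with the mean and SD of the 4 mice of a group (bars); blue is normoxia, red hyperoxia, filled symbols scrambled antimiR and open symbols antimiR-34a. For Nrarp the normoxia scrambled mice sit lowest at P5 (-0.95 to -0.66), and at P14 the hyperoxia scrambled mice sit above the other 3 groups.

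RefSeq promoter windows (250 bases before the start, GRCm38.p6) were read for the 8 receptors and ligands; those of Hes1 and Hey1, the targets among the 10, were not analysed here. None of the windows read held TGGGAA, the core that RBPJ binds, on either strand, letters that 21.6% of all 32851 windows hold.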

How the data were processed

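RNA of whole lungs perfused with saline was hybridised by the authors to 32 one-colour (Cy3) Agilent 60-base arrays, 1 per sample. The members and all gene lists were chosen with earlier results of these data known. The deposited scanner files, made by the authors with Agilent Feature Extraction 10.7.3.1, hold spot intensity, background-subtracted within each array and not scaled between arrays, with mm9 probe positions. The deposited series table holds the authors' log2 values of the same arrays, used as an alternative; per array they had r of 0.997 to 1.00 with the scanner values and a median of 6.00 to 6.01, and what each array was centred on is not given in the sources used here. From the intensity, log2 minus the 75th percentile of each array was computed. Control spots and outlier spots (0.211% on average) were left out and spots of a probe averaged. Tests covered the probes that were well above background in every mouse of 1 or more groups: 35984 of 55681 mouse probes at P5, 38458 at P14 and 39163 at both ages together. The number of arrays limits the precision.

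Groups came from the sample labels. Each age was fitted over its 4 groups, and age comparisons over all 8, with limma 3.58.1 (R 4.3.3), a mean for each group and p-values adjusted by Benjamini-Hochberg across all probes tested, with 0.05 as the threshold. A gene was read on its brightest probe. The code was tested on simulated data. Named genes were the 10 members, up to 6 genes per age of the 45-gene pathway list and the genes most like each member by Pearson r. Those pathway genes were called in scrambled antimiR mice, with groups not overlapping and the largest changes. Rbpj and Nrarp are said, where they appear, to be named after their values were seen. The single endothelial markers Kdr, Cdh5 and Cldn5 were picked from their list by no rule set in advance. Marker lists for endothelial, arterial, pericyte and smooth muscle, airway, type I, type II, thymocyte, skeletal muscle, heart, adipocyte and proliferating cells were summed as means of log2 values. The alternatives were other scaling, quantile normalization, normexp, filters, array weights, the compared groups alone, the mean of a gene's probes, the authors' values, the methods' t-test, replicate number as a block and leaving out each array. MicroRNA and promoter sequences are RefSeq's (GRCm38.p6).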

Additional observations from a re-analysis of the deposited data

Results flagged for a closer look

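In 6 of 80 gene-by-group sets of 4 mice, 1 mouse stood apart from the other 3, by a gap past Dixon's 95% critical value as a share of the group's range; chance gives about 1 in 20. Hes1 held 3 of them. Its highest mouse in P14 normoxia with antimiR-34a was replicate 2 (0.17, with -0.03 to -0.02 in the others, gap 0.932 of the range). Its lowest in P14 normoxia with scrambled antimiR was replicate 4 (-0.25, with -0.02 to 0.01 in the others, gap 0.888). In P5 hyperoxia with antimiR-34a, where Hes1 was called lower than in normoxia, replicate 3 was highest (0.22, with -0.31 to -0.26 in the others, gap 0.897). Dll1 was lowest in replicate 3 of P5 hyperoxia with scrambled antimiR (-0.88, with -0.61 to -0.57, gap 0.877). Hey1 was highest in replicate 3 of P5 normoxia with scrambled antimiR (3.21, with 3.04 to 3.07, gap 0.838). Notch3 was lowest in replicate 4 of P14 normoxia with antimiR-34a (3.36, with 3.42 to 3.43, gap 0.843).

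The hyperoxia effect with scrambled antimiR differed between P14 and P5, by the test of the difference itself, for Hey1 (-1.44), Notch4 (-0.60), Dll4 (-0.53), Dll1 (-0.44) and Jag2 (-0.37), each as a log2 difference of effects. Age and slide cannot be told apart in it.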

How the results depend on the processing

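Scaling to probes above background and reading Notch1 on its dimmer probe (chosen after seeing the data) left the count of members called within 1.5 times of the reported one in all 12 comparisons. For antimiR-34a in hyperoxia at P14, 3 were called as reported, 1 with array weights, no filter, normexp, quantile normalization, the authors' values or the replicate block, and 0 with the compared groups alone or the methods' t-test. It was 1 without each of 6 of the 8 mice (antimiR-34a replicates 1 and 4 and the 4 scrambled), 1 to 2 over all. Where 0 were reported, 1 was called in hyperoxia at P5 without a filter; array weights gave 1 in normoxia at P14, 2 in normoxia at P5, 3 for the difference between antimiRs at P14 and 1 for it at P5; the mean of a gene's probes gave 1 in normoxia at P5. For the difference at P5, 1 was also called with the mean of probes, normexp, only probes above background on every array, or without the normoxia scrambled replicate 3 (0 to 1 over the 16 mice). For hyperoxia the methods' t-test gave 5 in place of 9 at P14 with antimiR-34a and 2 in place of 5 at P5. At P14 with scrambled antimiR, the mean of probes, quantile normalization and the authors' values gave 5 in place of 3. The count for age in normoxia was 2 without the P14 replicate 4 (2 to 4 over the mice), and the 5 differences of effect between ages ranged from 2 to 6, with 2 or 3 without P14 hyperoxia replicates 3 or 4, P5 hyperoxia replicate 4 or P5 normoxia replicate 2. The cause of these moves was not tested.

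Signs turned in 1 called difference, given last, and in differences that did not pass the test. For antimiR-34a Dll1 in hyperoxia at P5 was 0.0223 with array weights. Jag1 at P5 was -0.00606 in hyperoxia and -0.0353 in normoxia with normexp, and -0.00076 to 0.0786 and -0.0662 to 0.0845 leaving out 1 mouse. Notch1 on its dimmer probe was 0.519 in hyperoxia at P14 (0.0799 as the mean of probes) and -0.217 at P5. Notch2 in normoxia at P14 was 0.0171 with the other scaling, 0.160 as the mean of probes, 0.0135 with normexp, 0.021 with quantile normalization, 0.0214 in the authors' values and -0.0541 to 0.0224 leaving out 1 mouse. As the mean of its probes Notch2 was -0.0261 in normoxia at P5, and its called fall in hyperoxia with antimiR-34a at P5 became 0.0332.

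Same-numbered mice of different groups had correlations of deviations from -0.126 to 0.154 at P5 and -0.354 to 0.499 at P14. They were over 0.1 in 4 of 24 pairs at P5 and 6 of 24 at P14. Their median was 0.009 at P5 and 0.041 at P14, with -0.011 and -0.022 between mice of different numbers. At P5 1 of 16 mice correlated best with its own number, and at P14 8 of 16 did. Whether replicate numbers pair the mice was not tested. The replicate block moved the count of antimiR-34a calls in hyperoxia at P14 from 3 to 1 and ended the 3 Nrarp calls.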
